A study of Mus musculus with 8 samples.

Results

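RNA immunoprecipitation followed by sequencing (RIP-seq) with an antibody to NONO was compared between mouse livers taken 10 h after re-feeding and fasted livers. The peaks of the 10 h list and of the fasted list were joined into 1 region wherever they overlapped by 1 bp or more. This gave 73302 regions, against 115182 regions in the union of all 4 peak lists of the series, which also include NONO 2 h after re-feeding and a control IgG. A region was classed as 10 h only, fasted only or both, by the lists its peaks came from. Tags were also summed over each gene body of the GENCODE M21 annotation of mm10, for 21951 protein-coding and 10155 long non-coding genes.

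The 10 h re-fed group was wild-type C57BL/6 mice aged 14 weeks, with livers taken at zeitgeber time 22, late in the dark phase. The fasted group was wild-type C57BL/6 mice of the same age, with livers taken at zeitgeber time 10, in the light phase. Both groups were housed under a light cycle of 12 h on and 12 h off, and for the week before collection food was given only in darkness. Feeding state and time of day therefore differed together and cannot be told apart here. RNA came from nuclei purified through a sucrose cushion, and each library pooled 2 experiments. With 1 library a group there is no replicate check on any difference, and no p-value is given.

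NONO is an RNA- and DNA-binding protein of the DBHS family, whose other members are SFPQ and PSPC1. The proteins pair with each other and gather on the long non-coding RNA Neat1, which builds the nuclear bodies called paraspeckles. NONO also binds PERIOD proteins of the circadian clock and takes part in transcription and in the processing of unspliced RNA. In liver, most nuclei in a purified preparation are those of hepatocytes, the cells that store, make and release fuels across the cycle of feeding and fasting. Nuclear RNA is rich in unspliced transcripts, so a RIP peak in an intron can come from a transcript that still holds that intron.

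The 10 h immunoprecipitate held 18275033 tags and the fasted one 21032764 tags. The unit throughout is the authors' normalised tag count, which is tags per 10000000 tags of the library, called tags below. A peak needed at least 11 tags as sequenced, which is 6.02 tags after normalisation at 10 h and 5.23 tags in the fasted library, and 2-fold over its own input. The 10 h list had 50609 peaks over 44.7 Mb with 17.3% of the library's tags, and the fasted list had 38209 peaks over 29.7 Mb with 11.6% of the library's tags. The lists give values only for called peaks. A region or gene with no peak in a list is therefore below the calling limits there and not at 0, and no fold is given for it. Intervals in square brackets are exact 95% Poisson intervals for tags and exact 95% Clopper-Pearson intervals for percentages, and cover counting error only.

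The most tagged 10 h only region and some leading regions of the other classes lay over annotated small RNAs. Sequences of some are shown to identify what lay under the regions. The 10 h only regions next in tags, in Amn1, Alb and Fgb, met no annotated small RNA, and that in Amn1 met IgG peaks. The 10 h only region with most tags, chr7:111075761-111076639, held 8657 tags [8523 to 8793] and 3.07-fold over input. It covers the whole of Gm23262, a snoRNA within Eif4g2, a gene of a translation initiation factor. Neither the fasted, the 2 h nor the IgG list had a peak there. The shared region chr3:69084350-69085211 held 5423 tags at 10 h, against 21.9 tags in the fasted library, and lies in Kpna4, the gene of an importin that carries proteins into the nucleus. Its 10 h peak overlaps 107 of the 343 bases of the scaRNA Gm22009, while its fasted peak, chr3:69084350-69084850, does not reach that RNA. The last 200 bases of Gm22009 are shown, with the overlapped stretch in capitals. The fasted only region chr1:87776035-87777484 held 707.9 tags in the fasted library at 3.66-fold over input and covers the scaRNA Gm25395 in Atg16l1, an autophagy gene. These sequences are from GENCODE M21 transcripts (GRCm38), and snoRNAs and scaRNAs are small nuclear RNAs that guide chemical changes to other RNAs.
Gm23262 (chr7:111076060-111076227, minus strand): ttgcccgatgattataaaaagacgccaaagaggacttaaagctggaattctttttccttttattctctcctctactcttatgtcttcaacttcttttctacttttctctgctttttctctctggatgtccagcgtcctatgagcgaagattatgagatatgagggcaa
Gm22009 (chr3:69085105-69085447, minus strand): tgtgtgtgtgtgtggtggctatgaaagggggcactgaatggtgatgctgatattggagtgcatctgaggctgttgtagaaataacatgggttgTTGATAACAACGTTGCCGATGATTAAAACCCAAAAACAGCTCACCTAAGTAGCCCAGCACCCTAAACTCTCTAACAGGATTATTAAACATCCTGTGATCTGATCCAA
Gm25395 (chr1:87776938-87777209, plus strand): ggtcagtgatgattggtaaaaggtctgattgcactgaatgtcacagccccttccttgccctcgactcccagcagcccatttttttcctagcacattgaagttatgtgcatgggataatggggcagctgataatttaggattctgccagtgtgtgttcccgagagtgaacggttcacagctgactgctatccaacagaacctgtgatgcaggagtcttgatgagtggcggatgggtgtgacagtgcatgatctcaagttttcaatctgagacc

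Primary microRNA transcripts lay under other leading regions. The region at Vmp1 that contains Mir21a, chr11:86580475-86584808, was in both lists with 1463 tags at 10 h and 2316 tags in the fasted library, and no IgG peak met it. The fasted only region with most tags on the nuclear chromosomes, chr17:35917235-35919857, held 1466 tags in the fasted library and contains Mir1894 in an intron of Ppp1r10. The 2 h list had 1250 tags there, so absence from the 10 h list does not separate the fasted state from both re-fed times. The mature sequences below are from RefSeq (GRCm38.p6), with the seed, bases 2 to 8, in capitals.
miR-21a-5p: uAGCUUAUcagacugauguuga
miR-21a-3p: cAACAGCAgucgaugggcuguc
miR-1894-5p: cUCUCCCCuaccaccugccucu
miR-1894-3p: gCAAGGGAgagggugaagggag
No seed was shared among the 4. Small RNAs as a whole were a minor part of the regions. They met 98 regions of 10 h only, 65 of fasted only and 116 of both.

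A minority of the regions had a peak at both times. The 10 h only class held 35741 regions (48.8%), the fasted only class 23091 regions (31.5%) and the both class 14470 regions (19.7%). Regions in both lists were wider and more tagged. Their median width was 1288 bp, against 627 bp for 10 h only and 500 bp, the smallest width a peak can have, for fasted only. Median tags were 15.9 at 10 h in the 10 h only class and 13.8 in the fasted library in the fasted only class. In the both class the medians were 26.8 tags at 10 h and 24.2 tags in the fasted library. Shared regions held 43.9% of the 10 h tags in peaks and 59.2% of the fasted tags in peaks, so most of the signal of the shorter list lay in regions that the longer list also had.

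**Figure D1:**
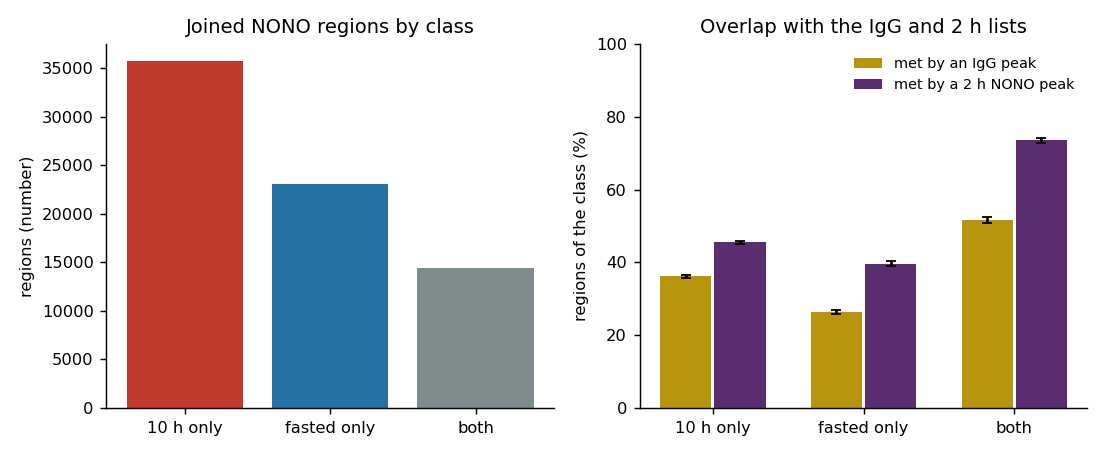
Left, number of joined regions in each class. Right, percentage of each class met by an IgG peak or by a NONO peak of the 2 h list, with exact 95% binomial intervals that cover counting error only. The both class is the smallest and has the highest percentages, 51.5% met by IgG and 73.5% met by a 2 h peak.

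Regions called at 1 time were often close to a peak of the other time. Of 10 h only regions, 20.5% had a fasted peak within 1000 bp and 77.4% within 10 kb. Of fasted only regions, 29.0% had a 10 h peak within 1000 bp and 86.1% within 10 kb. An IgG peak met 36.1% [35.6 to 36.6] of 10 h only regions, 26.4% [25.9 to 27.0] of fasted only regions and 51.5% [50.7 to 52.3] of shared regions. The labels do not give the feeding state of the IgG library, and 37.5% of its tags lay in 1 peak. A 2 h peak met 45.5% of 10 h only, 39.6% of fasted only and 73.5% of shared regions, and 37.1%, 33.4% and 63.1% of these classes, in the same order, where no IgG peak met the region.

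All 3 classes lay mainly in introns, with 85.8% [85.4 to 86.2] of 10 h only, 86.6% [86.2 to 87.0] of fasted only and 87.9% [87.3 to 88.4] of shared regions. The host genes were long, with medians of 105 kb for 10 h only, 112 kb for fasted only and 109 kb for shared regions. Median positions were 47.8%, 45.2% and 46.1% of the way along the gene, in the same order. The classes differed in their minor places. Promoters, taken as the 1000 bp upstream of a start site, held 1.22% [1.11 to 1.34] of 10 h only regions, against 0.528% [0.439 to 0.631] of fasted only regions. Coding exons held 0.238% [0.190 to 0.294] of 10 h only regions and 0.485% [0.400 to 0.583] of fasted only regions. Both pairs of intervals are apart, with counting error alone considered.

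Inside shared regions the tags at 10 h and in the fasted library were close on the median. The median log2 ratio of 10 h over fasted tags was 0.10, with quartiles of -0.55 and 0.81. Tags were 2-fold or more higher at 10 h in 2912 regions (20.1%) and 2-fold or more lower in 1973 regions (13.6%). Tags were higher at 10 h in 54.0% of shared regions, but in 45.8% of the 6346 regions where 1 peak a list overlapped by 50% or more of the longer peak, in 40.4% when tags were divided by the length covered, and in 32.2% after scaling to tags inside peaks. The direction of the bulk of shared regions thus turned with how they were matched and scaled.

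Besides Neat1 and the Kpna4 region, the shared regions with most tags included several in metabolic genes. The region in Acot12, an acetyl-CoA hydrolase, had 3191 tags at 10 h and 9183 tags fasted, at 13.3-fold over input at 10 h and 8.40-fold fasted. It also overlaps Gm24597, annotated as a miscellaneous small RNA, and which of the 2 gave the tags was not tested. The region in Slc7a2, which takes up arginine, had 3523 tags at 10 h and 8327 tags fasted, and one in Cyp7b1 had 689 tags at 10 h and 4078 tags fasted. One in Cps1 had 3699.6 tags at 10 h and 1828 tags fasted. The fasted only region with most tags of all lay over mitochondrial ribosomal RNA genes, with 20307 tags at 2.09-fold over input.

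Input RNA, the nuclear RNA before immunoprecipitation, moved with the immunoprecipitate. Over the 6346 matched regions the log2 ratio of 10 h over fasted had quartiles of -0.53 and 0.41 in the immunoprecipitate and -0.74 and 0.46 in input. Pearson's r between the 2 ratios was 0.88 and Spearman's rho 0.88 across regions, given as a description, since regions of 1 gene share a transcript and all share the same libraries. Of the matched regions that were 2-fold or more higher in the immunoprecipitate, 87.1% were also 2-fold or more higher in input, and of those 2-fold or more lower, 91.4% were 2-fold or more lower in input. The ratio of immunoprecipitate to input stayed within 2-fold between the times in 94.9% of the matched regions, and in 99.7% of the 2144 with at least 20 input tags at both times. Every peak had to reach 2-fold over input in its own library, which limits how far this ratio could vary. Differences in NONO tags given below are therefore differences in tags recovered.

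**Figure D2:**
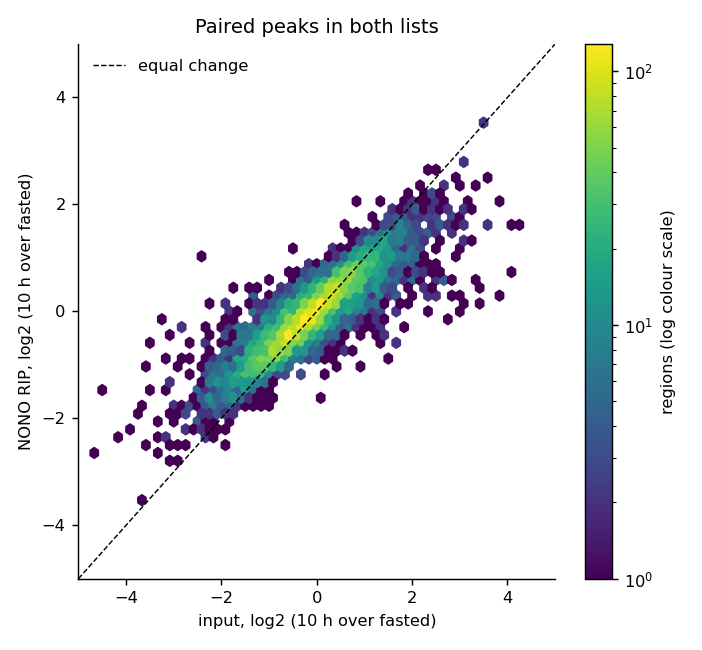
Each hexagon counts regions with 1 peak in each list that overlap by 50% or more of the longer peak (6346 regions). The vertical axis is the log2 ratio of 10 h over fasted tags in the NONO immunoprecipitate and the horizontal axis the same ratio in input. The regions spread along the diagonal of equal change, and the spread of the input ratio is the wider.

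Per gene, NONO tags were higher at 10 h in more genes than they were lower. At 10 h 8351 genes had a peak and in the fasted list 7081 genes, and 6071 genes had a peak in both. Among these 6071 genes, 1950 (32.1%) had summed tags 2-fold or more higher at 10 h and 562 (9.26%) 2-fold or more lower, with a median log2 ratio of 0.53. Scaling to tags inside peaks, which lowers every log2 ratio by 0.58, gave 1037 (17.1%) higher and 1127 (18.6%) lower and a median of -0.05. The surplus of higher genes thus rests on scaling to all tags of the library. Fewer cells of a type and less RNA per cell cannot be told apart in these bulk libraries. A further 2280 genes had a peak only at 10 h, which is 24.4% of the 9361 genes with a peak in either list, and 1010 (10.8%) only in the fasted list. Such genes mostly had 1 peak, namely 69.5% of the 10 h only and 78.7% of the fasted only genes. Covered length and peak number went the same way as tags, each by 2-fold or more, in 1089 of the higher and 273 of the lower genes. Input was available only under the called peaks of each list, so summed input of a gene follows its peak number and covered length and is not an independent level of its RNA.

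**Figure D3:**
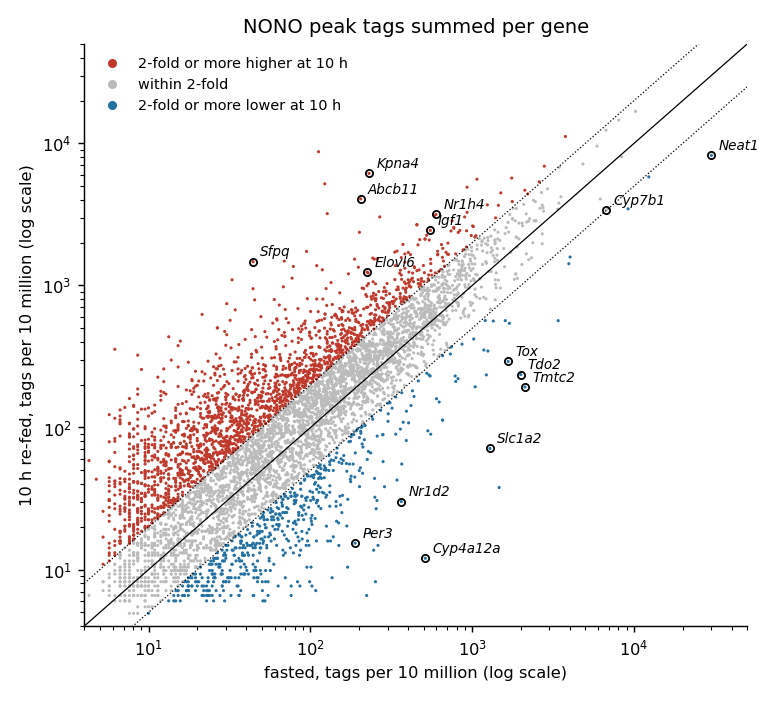
Summed tags in peaks per gene at 10 h (vertical) against the fasted library (horizontal), both per 10000000 tags on log scales, for the 6071 genes with a peak in both lists. The solid line marks equal tags and the dotted lines a 2-fold difference. The named genes lie far from the line, as Sfpq with 1468 tags at 10 h and 44.2 tags fasted, or near the lower dotted line, as Cyp7b1.

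Among genes 2-fold or more higher at 10 h in tags, covered length and peak number, the 12 with the largest gain in tags were led by Kpna4, the importin gene, and Abcb11, the pump that exports bile salts. Kpna4 had 6138 tags [6025 to 6253] at 10 h, against 230 tags [210 to 252] fasted, and 5423 of its 10 h tags were in the single peak that overlaps Gm22009. Abcb11 (chr2:69238282-69342616) had 4060 tags [3968 to 4153] in 20 peaks at 10 h, against 204 tags [186 to 225] in 7 peaks fasted, a log2 ratio of 4.31. Nr1h4, the bile acid receptor FXR, had 3158 tags in 11 peaks at 10 h and 596 tags in 3 peaks fasted.

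Scp2, a sterol carrier, had 4675 tags at 10 h and 2112 tags fasted. Acsl1, which activates long-chain fatty acids, had 2100 tags at 10 h and 474 tags fasted. Cyp3a11, a drug- and steroid-oxidising enzyme, had 2848 tags at 10 h and 750 tags fasted. Igf1, the liver-made growth factor, had 2438 tags in 16 peaks at 10 h, against 551 tags in 5 peaks fasted. Its 2 h level, 7081 tags, was above both. Luc7l2, a splicing factor, had 1734 tags at 10 h and 94.6 tags fasted. The other genes chosen by the same ranking were Sorbs2, Sox5, Pcca and Phldb2, each between 2250.1 and 2668 tags at 10 h and between 454 and 819 tags fasted. Of these 12 genes Scp2 and Phldb2 were no longer 2-fold higher after scaling to tags inside peaks, with log2 ratios of 0.57 and 0.95. With peaks at 3-fold or more over input alone, Scp2 and Pcca turned to log2 ratios of -0.37 and -0.095. All 12 genes also carried IgG peaks, with 488 to 3840.0 IgG tags. Leaving out peaks that meet IgG took Phldb2 to a log2 ratio of 0.35 and Scp2 to 0.81, both under 2-fold, and Luc7l2 to 1.70, against 4.20 with all peaks. Nr1h4 and Cyp3a11 then had no value.

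Lower genes were ranked likewise, among those 2-fold or more lower at 10 h in tags, covered length and peak number. Tmtc2 (chr10:105187663-105574451), an enzyme gene of the endoplasmic reticulum, had 192 tags [173 to 214] in 13 peaks at 10 h, against 2117 tags [2055 to 2179.8] in 57 peaks fasted. Tdo2, the enzyme that opens the ring of tryptophan, had 236 tags in 1 peak at 10 h, against 1992 tags in 2 peaks fasted. Tox, a DNA-binding HMG-box protein, had 292 tags in 23 peaks at 10 h and 1667 tags in 49 peaks fasted.

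Slc1a2, a glutamate transporter, had 71.2 tags at 10 h and 1286 tags fasted, of which 809 fasted tags were in 1 peak. Cyp4a12a, a fatty acid hydroxylase, had the largest ratio among these 12 genes, with 12.0 tags in 1 peak at 10 h and 513 tags in 8 peaks fasted (log2 ratio -5.42). Srrm2, which builds nuclear speckles, had 55.3 tags at 10 h and 367 tags fasted. Others were Nr1d2, described with the clock, and Sntg2, Rprd1a, Mme and Cask, each between 42.7 and 230.3 tags at 10 h and between 343 and 549 tags fasted. With peaks at 3-fold or more over input alone, Tox, Slc1a2 and Rprd1a turned to log2 ratios of 0.95, 1.01 and 0.91. Tmtc2 and Srrm2 were then within 2-fold, at -0.83 and -0.76, and Tdo2 and Nr1d2 had no value. Cyp4a12a, Sntg2, Mme and Cask stayed 2-fold or more lower. IgG peaks met all 12 genes, with 46.3 to 653 IgG tags.

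Genes with a peak in 1 list only included some with long runs of peaks. Npas2 (chr1:39193731-39363236), a partner of BMAL1 in the clock, had 587 tags in 23 peaks at 10 h, spread from 1.88 to 161 kb from its start, and none in the fasted or the 2 h list. None of these 23 peaks met an IgG peak. Gm31508, a non-coding gene, had 2366 tags in 23 peaks at 10 h and also none in the fasted or 2 h list. Alb (albumin) and Fgb (fibrinogen beta) had 1710 and 1608 tags at 10 h, each in 1 peak just over the limit of calling, at 2.05- and 2.07-fold over input.

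Slc38a2, an amino acid transporter, had 1065 tags at 10 h. Selenop, the selenium carrier of plasma, had 893 tags at 10 h. Slc27a2, which takes up and activates fatty acids, had 631 tags in 7 peaks at 10 h. The 2 h list had a peak in all 3, with 1109 tags at Slc38a2, 119 tags at Selenop and 719 tags at Slc27a2. Tex14, Gm10069 and Keg1 held 976, 938 and 861 tags at 10 h.

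Fkbp5 (chr17:28399094-28517527), a co-chaperone of the glucocorticoid receptor, led the genes with a peak in the fasted list only. It had 961 tags [920 to 1004] in 16 peaks from 36.1 to 112 kb from its start. At 2 h it also had 16 peaks, with 230 tags, so its series in order of time was 961, 230 and no peak. Tcp11l2 had 233 tags in 8 peaks in the fasted list, 7.11 tags in 1 peak at 2 h and none at 10 h. Jph1, whose product ties membranes together, had 198 tags in 12 peaks in the fasted list, and the same 12 peaks also lie in Gm28376, since strand was not used in calling. Cat (catalase), Hsd3b3 (a steroid dehydrogenase) and Eif4a1 (a translation initiation helicase) had 305, 295 and 185 tags in the fasted list. At 2 h these 3 genes had 759, 593 and 43.6 tags, so Cat and Hsd3b3 had more tags at 2 h than fasted. Their IgG tags, 1489, 325 and 264, were above the fasted tags in each.

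**Figure D4:**
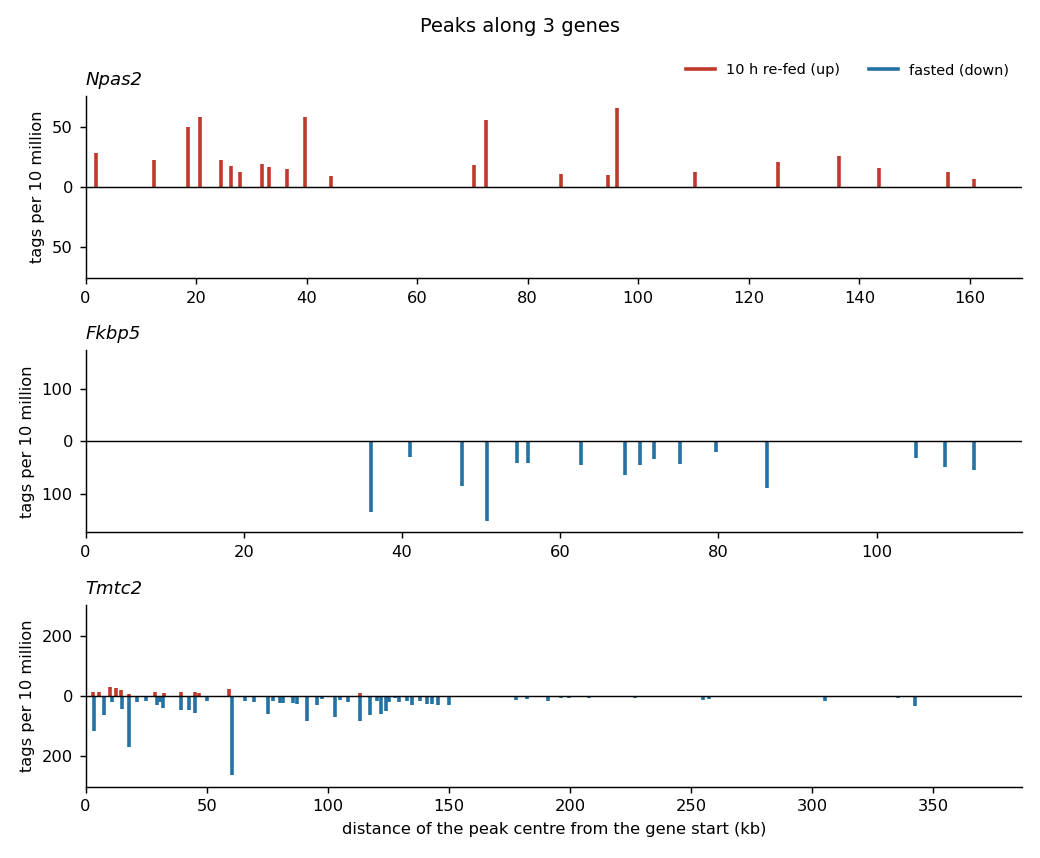
Each bar is 1 peak, placed by its distance from the gene start in kb, with its tags per 10000000 drawn upwards for 10 h re-fed and downwards for fasted. Npas2 has 23 peaks at 10 h only, Fkbp5 has 16 peaks in the fasted list only, and Tmtc2 has 13 peaks at 10 h and 57 peaks fasted, most of them in the first 150 kb.

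The circadian clock is a loop in which BMAL1 (Arntl) pairs with CLOCK or NPAS2 to drive Per, Cry and Nr1d genes, whose products act back on it. Of 26 clock genes, 17 had a peak in both lists, with 5 higher and 4 lower at 10 h (percentages over all genes are 32.1% and 9.26%). The median log2 ratio was 0.30, against 0.53 over all genes. After scaling to tags inside peaks it was -0.28, with 2 higher and 6 lower, against 17.1% and 18.6% over all genes. Arntl, Npas2 and Fbxl21 had a peak at 10 h only and Ciart in the fasted list only, and 5 of the 26 genes had none. Of all genes with a peak, 24.4% had one at 10 h only and 10.8% fasted only. Arntl had 345 tags [319 to 373] in 16 peaks at 10 h and 46.9 tags in 7 peaks at 2 h. Clock had 697 tags at 10 h and 289 tags fasted, but its log2 ratio was -1.03 with peaks at 3-fold or more over input alone.

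Repressor genes lay on either side. Cry1 had 327 tags in 10 peaks at 10 h and 64.6 tags in 6 peaks fasted, and it too turned, to -1.42, with the 3-fold peaks alone. Per2 had 49.8 tags at 10 h and 21.8 tags fasted, with 440 tags at 2 h and 951 tags in 11 IgG peaks. It had no value with the 3-fold peaks alone or without peaks that meet IgG. Cry2 had 21.4 tags at 10 h and 79.8 tags fasted. Per3 had 15.3 tags [10.2 to 22.1] at 10 h, against 189 tags [171 to 208] fasted. Nr1d2, which encodes the repressor REV-ERBβ, had 30.1 tags in 1 peak at 10 h and 364 tags in 5 peaks fasted. Without peaks that meet IgG its log2 ratio was -1.14, against -3.60 with all peaks. Ciart, a repressor of CLOCK and BMAL1, had 86.1 tags in 1 peak in the fasted list. Tef, an activator that binds D-boxes, had 8.76 tags at 10 h and 69.9 tags fasted. Rora and Nfil3, an activator and a repressor that act on clock genes, had 1124 and 111 tags at 10 h, against 426 and 34.7 tags fasted. Without IgG-met peaks the log2 ratio of Rora was -0.18. Per1 was within 2-fold, with a log2 ratio of -0.43, and Nr1d1 had a peak in neither list.

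The promoters of Ciart and Per3, both on the fasted side, are shown for the clock motifs that a search found in them (RefSeq, GRCm38.p6, 250 bases before to 50 after the start). Capitals mark the E-box CACGTG, the site of BMAL1 pairs, and the D-box TTATGNAA, searched on both strands. The motifs do not overlap. Ciart has 3 E-boxes and Per3 has 2 D-boxes. Of other clock genes described here, Cry1, higher at 10 h, also has 1 E-box, as does Tef, which is lower. Per1, within 2-fold, has 1 E-box and 1 D-box. Nr1d2 and Cry2, both lower, have neither motif. Arntl, Npas2, Clock, Rora and Nfil3, all on the 10 h side, have neither as well.
Ciart (chr3:95882179-95882478, minus strand): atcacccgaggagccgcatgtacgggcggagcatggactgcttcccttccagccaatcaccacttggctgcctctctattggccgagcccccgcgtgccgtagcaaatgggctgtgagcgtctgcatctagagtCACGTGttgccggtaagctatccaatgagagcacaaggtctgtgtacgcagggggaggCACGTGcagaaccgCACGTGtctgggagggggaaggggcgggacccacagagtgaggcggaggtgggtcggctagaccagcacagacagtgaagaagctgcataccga
Per3 (chr4:151044616-151044915, minus strand): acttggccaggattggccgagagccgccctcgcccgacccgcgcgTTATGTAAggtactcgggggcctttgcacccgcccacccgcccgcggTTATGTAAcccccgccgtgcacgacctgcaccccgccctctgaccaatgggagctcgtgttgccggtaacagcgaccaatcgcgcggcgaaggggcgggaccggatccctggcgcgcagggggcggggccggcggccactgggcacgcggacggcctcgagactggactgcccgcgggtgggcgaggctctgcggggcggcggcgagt
The E-box was in 7.80% of 20127 promoters, in 9.43% of those of genes with a peak at 10 h only and in 10.1% of those with a peak fasted only. It was in 10.2% of promoters of genes higher at 10 h and 9.66% of those lower, so its share did not separate the directions. A D-box was in 3.35% of all promoters, in 1.69% of those of genes higher at 10 h and in 2.42% of those lower.

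Genes of fatty acid and sterol synthesis were on the 10 h side. Of 32 such genes 22 had a peak in both lists, and 14 (63.6%) were 2-fold or more higher at 10 h and 0 lower, against 32.1% and 9.26% over all genes. All 22 log2 ratios were above 0, with a median of 1.51, against 0.53 over all genes. After scaling to tags inside peaks 10 were higher and 0 lower, against 17.1% and 18.6% over all genes, with a median of 0.93. Scd1, Sqle, Lss and Fads2 had a peak at 10 h only and Dgat1 fasted only, and 5 of the 32 genes had none. Of all genes with a peak, 24.4% had one at 10 h only and 10.8% fasted only, so genes in 1 list do not add to the 10 h side.

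Elovl6, which lengthens fatty acids, had 1240 tags in 25 peaks at 10 h and 224 tags in 12 peaks fasted. IgG peaks met 22 of the 25 and 9 of the 12, and without those Elovl6 had a log2 ratio of 1.79. Its 2 h level was 8600.4 tags, and with peaks at 3-fold or more over input alone its log2 ratio was -1.08. Acaca, which makes malonyl-CoA, had 1823 tags at 10 h and 657 tags fasted. Acly, which makes cytosolic acetyl-CoA, had 377 tags at 10 h and 70.4 tags fasted. Gpam, the first enzyme of glycerolipid synthesis, had 2437 tags at 10 h and 838 tags fasted. Without peaks that meet IgG neither Acaca nor Gpam was 2-fold higher, with log2 ratios of 0.31 and 0.27. Scd1, which desaturates fatty acids, had 475 tags in 1 peak at 10 h and 117 tags at 2 h. Fasn, the fatty acid synthase, had a peak in neither list.

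Several sterol genes had more tags at 10 h as well. Hmgcs1, the synthase ahead of HMG-CoA reductase, had 101 tags at 10 h and 9.51 tags fasted. Srebf2, the main activator of sterol genes, had 235 tags at 10 h and 67.1 tags fasted, while Srebf1 had 73.8 tags at 10 h and 48.5 tags fasted. Sqle, the squalene epoxidase, had 184 tags in 6 peaks at 10 h. The median over the 22 genes in both lists of the log2 difference in the ratio of immunoprecipitate to input was -0.16. Summed over the list, IgG tags were 14616, above the 10290 NONO tags at 10 h and the 3428 fasted. Without peaks that meet IgG 18 genes remained in both lists with 8 higher and 0 lower, against 27.4% and 13.6% over all genes. With peaks at 3-fold or more over input there were 10 genes, 4 higher and 2 lower, against 29.3% and 11.7% over all genes. Their median was 0.38, near the 0.34 of all genes.

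**Figure D5:**
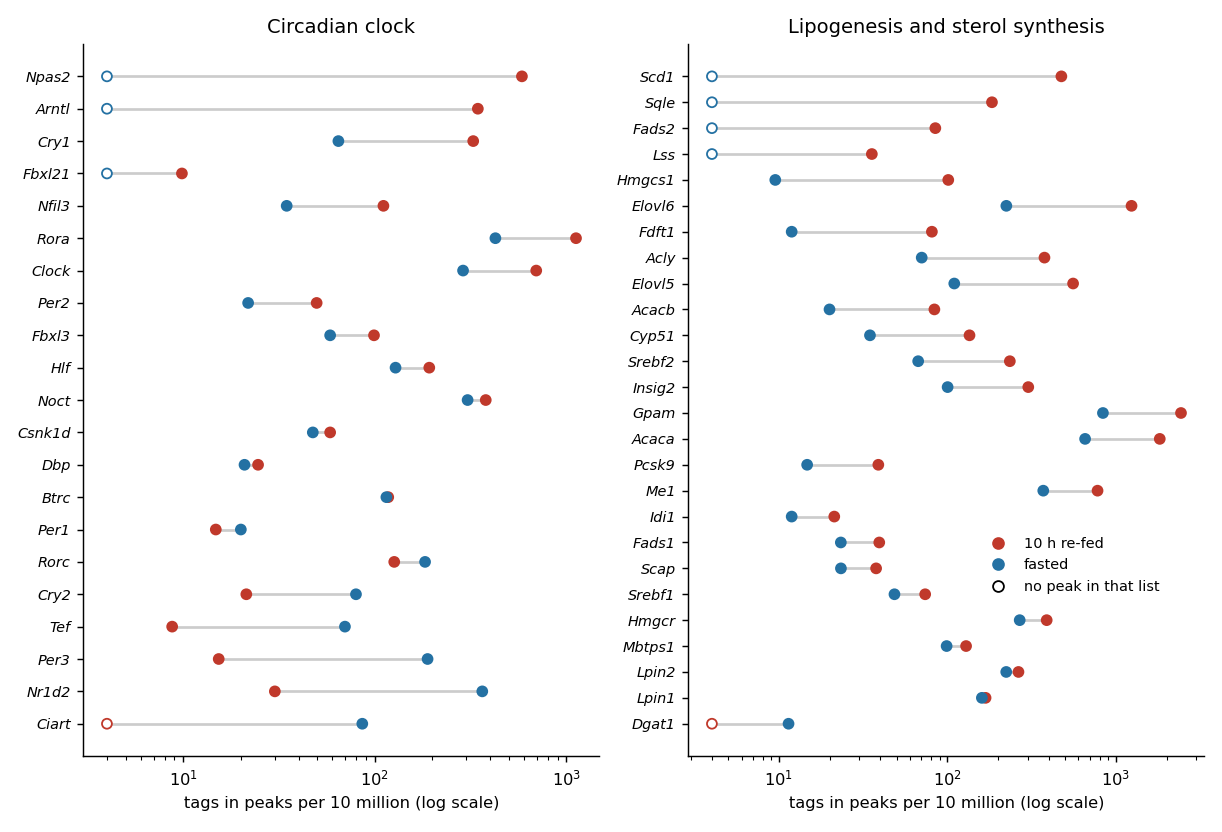
Summed tags in peaks per 10000000 (log scale) for clock genes (left) and fatty acid and sterol synthesis genes (right) with a peak, at 10 h re-fed (red) and fasted (blue). Open circles, drawn at the left edge, mark a list with no peak. In the right panel the genes drawn with peaks at both times all have more tags at 10 h, while the clock genes lie on both sides.

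Genes of fatty acid oxidation and ketone production did not move together. Of 27 such genes 20 had a peak in both lists, with 8 higher and 3 lower at 10 h, against 32.1% and 9.26% over all genes, and a median log2 ratio of 0.26, against 0.53. Without peaks that meet IgG 4 were higher and 7 lower, with a median of -0.73, against 27.4%, 13.6% and 0.29 over all genes. Scaling to tags inside peaks turned the median to -0.32, with 5 higher and 8 lower, against 17.1% and 18.6% over all genes. Cpt1a, which commits fatty acids to the mitochondrion, had 419 tags at 10 h and 1021 tags fasted. Hadha and Hadhb encode the 2 subunits of 1 mitochondrial enzyme. Hadha had 44.8 tags at 10 h and 188 tags fasted, while Hadhb had 277 tags at 10 h and 51.3 tags fasted. Ppara, the fasting-linked receptor that activates these genes, had 600 tags at 10 h and 946 tags fasted, within 2-fold.

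Of 10 glycolysis genes in both lists 3 were higher at 10 h and 0 lower, against 32.1% and 9.26% over all genes, with a median log2 ratio of 0.64. Mlxipl, the carbohydrate-sensing factor ChREBP, had 186 tags at 10 h and 28.1 tags fasted, and Eno1, an enzyme of lower glycolysis, had 31.2 tags at 10 h and 15.2 tags fasted. Of 10 gluconeogenesis genes 4 were higher and 2 lower, against the same percentages, with a median of 0.25. Hnf4a, a master factor of hepatocyte genes, had 234 tags at 10 h and 540.1 tags fasted, and Ppargc1a, a fasting-induced coactivator, had 215 tags at 10 h and 359 tags fasted. Pck1 and G6pc, the enzymes most tied to glucose output, had a peak in neither list.

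Of 12 glycogen genes 5 were higher and 1 lower at 10 h, against 32.1% and 9.26% over all genes, with a median log2 ratio of 0.53, the value over all genes. With peaks at 3-fold or more over input 8 were in both lists, with 1 higher and 0 lower. Over all genes 29.3% were then higher and 11.7% lower. The 8 genes had a median of -0.28, against 0.34 over all genes. Pygl, which breaks glycogen down, had 570.3 tags at 10 h and 62.2 tags fasted. Ugp2, which makes UDP-glucose, had 949.5 tags at 10 h and 125 tags fasted, a direction lost with the 3-fold peaks alone (log2 ratio -0.0045). Ppp1cb, a catalytic subunit of the phosphatase that acts on glycogen enzymes, had 159 tags at 10 h and 601 tags fasted.

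Plasma protein and amino acid genes were also on the 10 h side. Of 37 genes 21 had a peak in both lists, with 14 (66.7%) higher and 1 lower at 10 h, against 32.1% and 9.26% over all genes. A further 6 had a peak at 10 h only and 0 fasted only, where 24.4% and 10.8% of all genes with a peak did. The median log2 ratio was 1.49, against 0.53 over all genes. After scaling to tags inside peaks it was 0.91, with 9 higher and 2 lower, against 17.1% and 18.6% over all genes. With peaks at 3-fold or more over input only 3 members were in both lists, with 0 higher and 0 lower. Over all genes 29.3% were then higher and 11.7% lower. Cps1, the first enzyme of the urea cycle, had 11169 tags in 17 peaks at 10 h and 3763 tags in 8 peaks fasted. Fn1 (fibronectin) had 3033 tags at 10 h and 268 tags fasted. Bhmt, which remethylates homocysteine, had 1288 tags at 10 h and 118 tags fasted. Tdo2 was the 1 lower gene.

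Of 28 genes of bile acid and drug metabolism 18 had a peak in both lists, with 8 higher and 2 lower at 10 h, against 32.1% and 9.26% over all genes. Another 6 had a peak at 10 h only, against 24.4% of all genes with a peak. The median log2 ratio was 0.68, against 0.53 over all genes, and 0.10 after scaling to tags inside peaks. Abcc2, an exporter of conjugates into bile, was on the other side from Abcb11, with 345 tags at 10 h and 1249 tags fasted. Por, the electron donor of cytochrome P450 enzymes, had 8.76 tags in 1 peak at 10 h and 136 tags in 4 peaks fasted. Slco1b2, an uptake transporter, had 2677 tags at 10 h and 456 tags fasted. Cyp7b1, which makes bile acid precursors, had 3395 tags in 31 peaks at 10 h and 6730 tags in 17 peaks fasted, just within 2-fold. Cyp7a1, the rate-limiting enzyme of bile acid synthesis, had 200 tags in 1 peak at 10 h only, at 2.04-fold over input.

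The RNAs of paraspeckles and their proteins differed among themselves. Neat1 (chr19:5824708-5845478) had 8227 tags in 4 peaks at 10 h, against 30057 tags in 1 peak fasted, and 20421 tags at 2 h. Its ratio of immunoprecipitate to input was 2.33 at 10 h and 4.33 fasted over the peaks called at each time. IgG peaks also covered it, with 24836 tags. Sfpq had 1468 tags [1413 to 1524] at 10 h, against 44.2 tags [35.7 to 54.2] fasted, and 1133 of the 10 h tags were in 1 intron peak without an IgG peak. Pspc1 had 594 tags at 10 h and 156 tags fasted, with a log2 ratio of -0.77 with the 3-fold peaks alone. Nono itself had 146 tags at 10 h and 102 tags fasted, within 2-fold.

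Over all 33 nuclear RNA-binding protein genes with a peak in both lists, 12 were higher and 3 lower at 10 h, with a median log2 ratio of 0.52, against 32.1%, 9.26% and 0.53 over all genes. Scaling to tags inside peaks gave 4 higher and 8 lower, against 17.1% and 18.6% over all genes. Hnrnpd, which binds AU-rich RNA, had 270.4 tags at 10 h and 27.1 tags fasted. Tra2a, a splicing activator, had 38.3 tags at 10 h and 287 tags fasted. Of 14 nuclear long non-coding RNAs in the annotation, 4 had a peak in both lists and 4 at 10 h only. Over all genes with a peak, 24.4% had one at 10 h only. Pvt1 had 221 tags in 19 peaks at 10 h only, and Malat1 had a peak in neither list.

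Among 24 insulin and nutrient signalling genes with a peak in both lists, 9 were higher and 1 lower at 10 h, with a median log2 ratio of 0.74, against 32.1%, 9.26% and 0.53 over all genes. Irs1, an adaptor of the insulin receptor, had 714 tags at 10 h and 259 tags fasted, while the receptor gene Insr had 865 tags at 10 h and 537 tags fasted. Stat5b, which carries the growth hormone signal, had 479 tags at 10 h and 114 tags fasted. The adhesion and axon guidance list of long genes had 14 members in both lists, with 6 higher and 0 lower and a median of 0.83, to be read against the same values. Ptprk, a receptor phosphatase, had 5693 tags in 112 peaks at 10 h and 1753 tags in 76 peaks fasted. Of 21 transporter genes 5 were higher and 4 lower, against 32.1% and 9.26%, with a median of 0.57. Slc16a7, a monocarboxylate transporter, had 13.7 tags at 10 h and 246 tags fasted, and Atp8b1, a phospholipid flippase of the bile canaliculus, had 537 tags at 10 h and 92.2 tags fasted.

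The liver label was checked against cell type markers, although peaks show RNA recovered with NONO and not expression. Of 5 hepatocyte markers, Cps1 was higher at 10 h, Alb and Cyp2e1 had a peak at 10 h only, and Apoa1 and Ttr had none in either list. Summed tags of that list were 13214 at 10 h and 3763 fasted. Of 7 Kupffer cell markers 4 had a peak, with 74.5 summed tags at 10 h and 23.8 fasted. Of 8 endothelial markers 4 had a peak, with 1311 tags at 10 h and 587 tags fasted. Stellate cell, cholangiocyte and lymphocyte lists had 2, 1 and 1 members with a peak, and 82.1, 117 and 136 summed tags at 10 h, against 47.1, 25.7 and 52.8 tags fasted. Krt19, Epcam, Cd3e, Csf1r and Pecam1 had a peak in neither list. Clec4f, Adgre1, Stab2, Kdr, Tek, Ptprb, Pkhd1 and Ptprc had a peak in both, and Cd5l and Timd4 at 10 h only. Summed IgG tags were 12832 over the hepatocyte list, 25.8 over the Kupffer cell list and 619 over the endothelial list. Over the stellate cell, cholangiocyte and lymphocyte lists they were 2507, 5.26 and 44.75. The part of cell makeup in these differences was not tested.

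Few genes differed in the ratio of immunoprecipitate to input. Over the 6071 genes, 77 (1.27%) had a ratio 2-fold or more higher at 10 h and 147 (2.42%) 2-fold or more lower. Leaving out peaks with fewer than 5 input tags brought these to 8 higher and 17 lower genes. Among the 2150 genes with at least 100 tags at both times, 99.8% were within 2-fold, and the median ratio was 2.51 at 10 h and 2.48 fasted. Past 2-fold among these were Gm42418 and AY036118, with the higher ratio at 10 h, and Gm26917 and Tln2, with the lower. Gm42418 and AY036118 hold the same peak in each list, over an annotated rRNA gene, with ratios of 7.14 at 10 h and 3.13 fasted. Gm26917 had 5.20 at 10 h and 15.1 fasted. Each of these long non-coding genes also had an IgG peak of 6739 tags. Neat1 and Tdo2 were lower at 10 h but within 2-fold, Tdo2 with 2.08 at 10 h and 3.84 fasted. Tox, also within 2-fold, went the other way, with 3.66 at 10 h and 2.30 fasted. Tln2, a cytoskeletal linker, had a ratio of 11.8 at 10 h and 29.6 fasted, on 18.9 scaled input tags at 10 h and 5.25 fasted. Genes with a peak in 1 list have no such ratio for the other time.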

How the data were processed

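Peak lists of 3 NONO immunoprecipitates and 1 IgG immunoprecipitate, each against its own input, were used. Per the submitters' processing notes the tools were FastQC 0.11.2, STAR 2.4.0k and HOMER, on mm10. Peak calling used HOMER's region mode, per the file headers, with 500 bp windows stitched at up to 1000 bp, both strands pooled, 2-fold over input and a minimum of 11 tags (8 for IgG). The deposited signal is the authors' tag number scaled to libraries of 10000000 tags. Per the file headers, the authors' tag counts per peak and input tags (floored at 0.5 or below), the fold ratio over input, the peak score and the Poisson p-value over input are also given. The score ranked peaks, the fold filtered them, and the p-value was not used. Normalised tags multiplied back by library size were whole numbers within 0.11 tags for 100% of peaks.

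The 10 h and fasted lists were compared by values and counts, without p-values. A gene received all tags of every peak that overlapped it by 1 bp. A called difference is 2-fold. Input tags were scaled to 10000000 input tags.

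The members and gene lists were chosen with earlier results of these data known. Genes were named by fixed rules: 12 a direction with the largest difference in summed tags among genes 2-fold apart in tags, length and peak number, 10 a list with no peak in the other, members of 19 gene lists, and a short set of named genes. Chromosome M was left out of the rankings, and some genes the rules name are not reported here. Other members of lists were named after their values were seen, as examples.

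Alternatives were a fold of 3, lists of equal length, other joining rules, other scaling and leaving out IgG-met peaks. Overlaps and gene sums were tested on simulated data. The software was Python 3.11.15 with pandas 2.3.3, numpy 2.4.6, scipy 1.17.1 and matplotlib 3.10.9. Base composition of regions was not analysed here.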

Additional observations from a re-analysis of the deposited data

How the results depend on the processing

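No paired analysis was possible because there is a single library for each group. Depth limits weak peaks most, since a peak of 11 tags has a wide counting interval. Of 60 alternative values for 22 results, 25 kept within their limits. With peaks at 3-fold or more over input, regions numbered 19174 (10 h only), 14043 (fasted only) and 2892 (both), IgG met 24.5%, 19.8% and 28.2% and a 2 h peak 24.7%, 22.4% and 45.0% of these. Shared regions with more tags at 10 h were then 50.6%, and 1132 genes were higher. Without peaks that meet IgG, there were 23460 regions of 10 h only and 7060 of both, 49.4% of shared regions had more tags at 10 h, 2 h peaks met 37.1%, 33.4% and 63.1%, introns held 84.6%, 85.1% and 86.2%, and promoters 1.24% of the both class. IgG overlap of 50% of the region gave 23.3%, 16.5% and 23.1%. Joining within 1000 bp left 15029 fasted only regions. Shared regions with more tags at 10 h were 32.2% scaled to tags inside peaks, 45.8% as matched pairs and 40.4% per covered length. Scaled to tags inside peaks 1037 genes were higher and 1127 lower. Genes that overlap no other gave 996 higher and 266 lower, from fewer genes. Lists of equal length gave 1547 genes with a peak fasted only. Leaving out peaks with fewer than 5 input tags gave 8 and 17 genes by ratio to input.

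Of the named genes called higher or lower, 41 and 15, those that kept the call were 37 and 14 with lists of equal length, 28 and 13 without IgG-met peaks, and 9 and 5 at 3-fold or more, where 22 had no value. Scaled to tags inside peaks, 23 of the 41 kept the call; this lowers every ratio, so no lower call could be lost. The log2 ratio changed sign at 3-fold or more in Scp2 (-0.37), Pcca (-0.095), Tox (0.95), Slc1a2 (1.01), Rprd1a (0.91), Pspc1 (-0.77), Clock (-1.03), Cry1 (-1.42), Gsk3b (-0.46), Ugp2 (-0.0045), Elovl6 (-1.08) and Mbnl2 (-0.12). It changed sign with lists of equal length in Adgre1 (-0.060) and without IgG-met peaks in Rora (-0.18) and Hnrnpa2b1 (-0.29). The cause was not tested. The planned base composition and motif search of regions was not run.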
